A study of Caenorhabditis elegans with 24 samples.

Results

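Embryos of Caenorhabditis elegans collected 500 min after the 4-cell stage were compared with embryos collected at 270 min, across every mature miRNA arm that had reads. Both groups came from the wild-type strain N2 and received no treatment; embryos were cut out of adult worms, picked by mouth pipette and pooled, 50 to a sample. Each time had 3 libraries, so the comparison used 6 of the 24 libraries of a timecourse with 8 times. The 6 libraries were chosen by their labelled stage alone, and neither stage name says which tissues had formed. The labels give no separate cultures or collection days for the samples of a time, so the p-values reflect how these samples vary, which may be partly technical.

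MicroRNAs are short RNAs cut from a hairpin precursor. Either arm of the hairpin, named 5p or 3p, can be loaded into an Argonaute protein and guide it to messenger RNAs that pair with the seed near the 5′ end of the miRNA. In worm embryos the earlier part of development is dominated by cell division and gastrulation and the later part by morphogenesis and differentiation of nerve, muscle, gut and skin. Families that share a seed often act redundantly, and the mir-35 family, supplied by the mother and the early embryo, is known to be required for embryonic viability.

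The 500 min libraries held between 221286 and 606287 counts and the 270 min libraries between 387540 and 1273548. Of 434 arms in the table, 229 had at least 1 read in the 6 libraries, and 109 had enough reads to be tested. The tested arms held at least 99.9% of the counts of each library. Log2 CPM of libraries of the same stage correlated at 0.935 to 0.977, and those of different stages at 0.629 to 0.757. The first principal component of the 12 libraries from 270 to 500 min held 65.3% of the variance and placed the 500 min libraries between 16.6 and 16.9, against -17.96 to -11.3 for the 270 min libraries. The deepest library, 270 min replicate 1, stood apart from the other 270 min libraries: it scored -11.3, against -17.96 and -16.8, and correlated with the 500 min libraries at 0.739 to 0.757, against 0.629 to 0.664 for the others. Called values that move by over 1.5-fold when it is left out are given beside the result. Levels are CPM, the counts of an arm scaled to a common library size after adjustment by TMM, an edgeR procedure that sets aside the arms with extreme differences; they are relative: an arm can lose share because others gained it. In whole embryos, fewer cells of a type and less RNA per cell cannot be told apart.

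At 500 min 24 arms were higher and 23 were lower than at 270 min, 47 of 109 in all (43.1% of the arms tested, with 22.0% higher and 21.1% lower; edgeR quasi-likelihood test, Benjamini-Hochberg adjusted p under 0.05). With library totals in place of TMM factors the split was 20 higher and 31 lower. The arms called higher made up 67.6% ± 4.02 of all counts at 500 min and 36.4% ± 3.30 at 270 min (n = 3, SD). Of this, miR-57-3p held 25.4% at 500 min and 20.3% at 270 min, miR-72-5p 12.2% and 9.68%, and miR-235-3p 3.19% and 1.63%. Each of these arms lost its call with library totals, the scale of these shares. The arms called lower made up 7.08% ± 0.999 at 500 min and 32.4% ± 5.07 at 270 min. All 47 had 3 libraries at one stage that lay above those at the other; among all 109 arms, 64 did (58.7%), 29 with the 500 min libraries above (26.6%) and 35 with them below (32.1%). Of the 47 called arms, 15 had fitted changes of more than 8-fold higher and 13 of more than 8-fold lower. The median log2 fold change of all 109 arms was 0.08, against 0.28 with DESeq2 size factors and -0.51 with library totals, so medians of families are given relative to it.

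**Figure D1:**
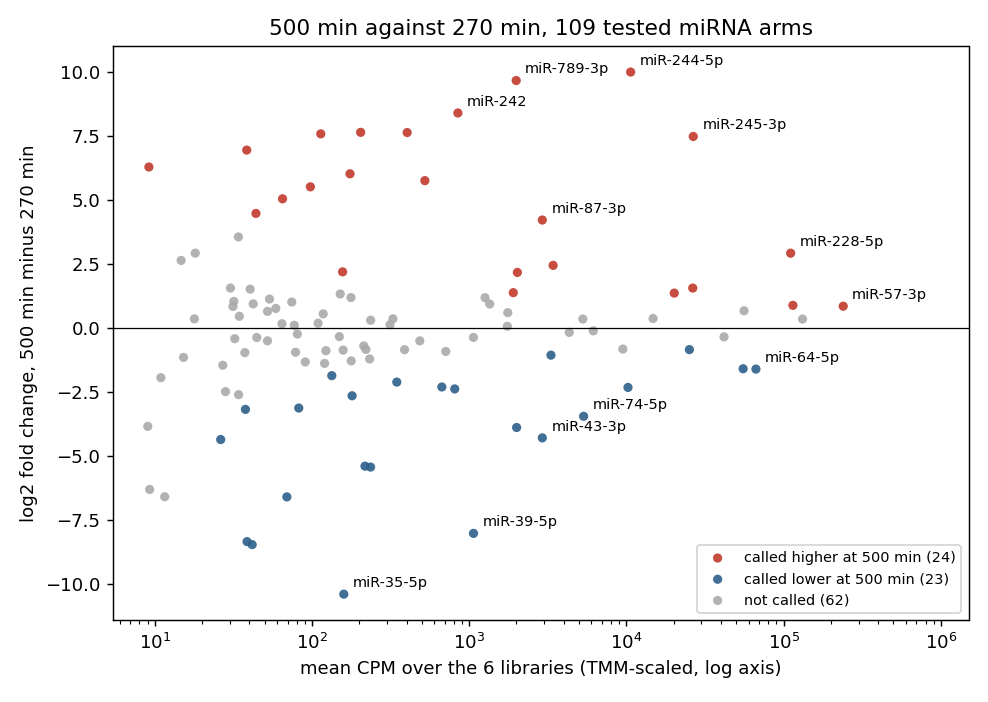
Log2 fold change, 500 min minus 270 min, of 109 tested miRNA arms against their mean CPM over the 6 libraries on a log axis. Red points are the 24 arms called higher, blue the 23 called lower and grey the 62 not called; miR-244-5p, miR-245-3p and miR-789-3p stand high among the rises and miR-39-5p and miR-35-5p low among the falls.

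The largest rise was that of miR-244-5p, from a hairpin on chromosome I (WBcel235, 4684316 to 4684414) outside protein-coding genes. It stood at 16851, 22304 and 24669 CPM in the 500 min libraries, against 46.4, 8.18 and 0 CPM in the 270 min libraries. Every 500 min library was thus far above every 270 min library, and the log2 fold change was 10.01 ± 1.11 (SE; edgeR adjusted p 4.54e-06). miR-245-3p, also from chromosome I (7887371 to 7887467), was the only one of the 12 largest rises that also ranked among the 10 most abundant arms. It had 81316, 55908 and 21733 CPM at 500 min and 425, 204 and 248 CPM at 270 min. The 500 min libraries differed among themselves by severalfold, yet the lowest was far above the 270 min libraries (log2 fold change 7.50 ± 0.61, edgeR adjusted p 2.64e-07). At 500 min miR-245-3p made up 4.26% ± 2.23 of all counts, against 0.0345% ± 0.00699 at 270 min, and miR-244-5p made up 1.76% ± 0.431 against 0.00193% ± 0.00241 (n = 3, SD).

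miR-789-3p, which 2 hairpin copies can produce, had 3934, 5006 and 3000 CPM at 500 min and 9.44, 1.64 and 0 CPM at 270 min (log2 fold change 9.68 ± 0.92). miR-242 had 2025, 1663 and 1389 CPM at 500 min, against 11.0 CPM in 270 min replicate 1 and 0 in the other 270 min libraries (log2 fold change 8.41 ± 0.97). Both groups of libraries were clearly apart for each of these arms, with edgeR adjusted p of 9.71e-07 for miR-789-3p and 5.50e-06 for miR-242. miR-788-3p was more variable, at 171, 773 and 277 CPM at 500 min and 3.94, 0 and 0 CPM at 270 min (log2 fold change 7.66 ± 1.19, edgeR adjusted p 0.000309). miR-1022-3p averaged 227 ± 86.6 CPM at 500 min and had 2 reads at 270 min, a ratio of 259 with a 95% counting interval of 70.7 to 2150 (edgeR adjusted p 0.000105). The textbook roles of these arms in the embryo are little known, and none is assigned here.

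**Figure D2:**
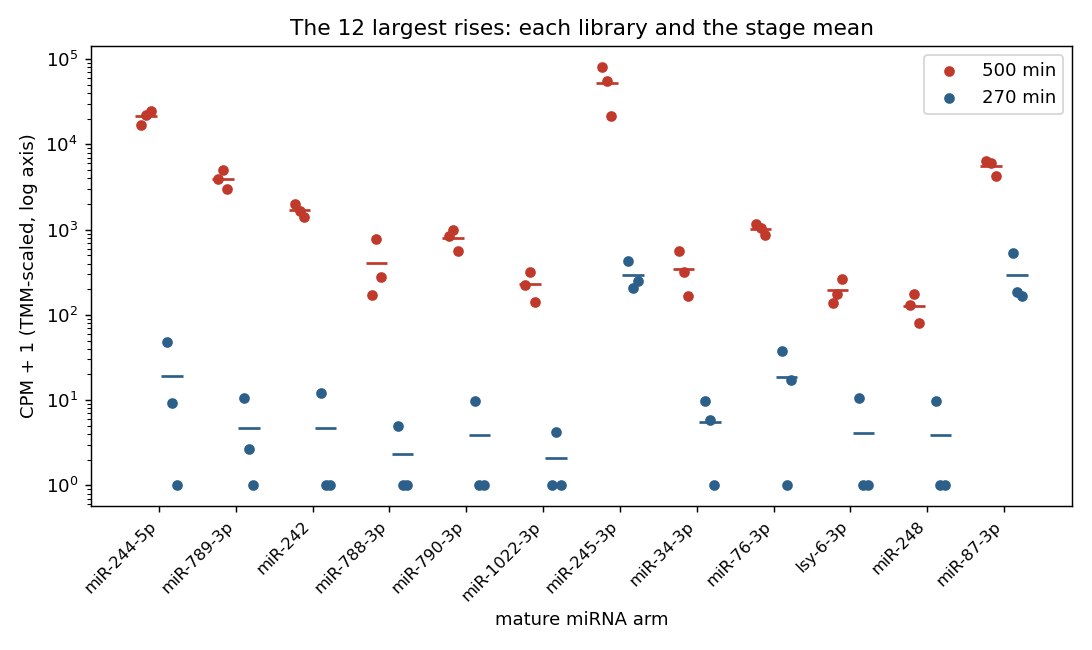
CPM + 1 on a log axis for the 12 arms with the largest rises, with 500 min libraries in red and 270 min libraries in blue (3 points each, bars at the mean). In each arm the red points lie above the blue ones, and several blue points sit at the bottom of the axis, where a library had no read.

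miR-34-3p belongs to the hairpin of the worm's miR-34, a family tied to stress responses in many animals, and reached 345 ± 197 CPM at 500 min, against 4.52 ± 4.34 CPM at 270 min (log2 fold change 6.04 ± 1.22, edgeR adjusted p 0.000889). Its partner miR-34-5p was too rare to be tested, with 14 reads at 500 min and 0 at 270 min. Which arm carries the family's seed was not checked. miR-76-3p had 1170, 1047 and 867 CPM at 500 min and 37.0, 0 and 16.0 CPM at 270 min (log2 fold change 5.77 ± 0.88, edgeR adjusted p 8.42e-05). miR-248 averaged 127 ± 47.2 CPM at 500 min and 2.89 ± 5.00 CPM at 270 min (log2 fold change 5.06 ± 1.15, edgeR adjusted p 0.00193). miR-87-3p, of a hairpin in an intron of kup-1 on chromosome V (12038688 to 12038781), had 6381, 5981 and 4278 CPM at 500 min and 534, 183 and 166 CPM at 270 min. It was 18.7-fold higher at 500 min (log2 fold change 4.23 ± 0.50, edgeR adjusted p 5.50e-06; 4.99 without 270 min replicate 1). miR-70-3p, from an intron of pmp-5, rose with a log2 fold change of 2.46 ± 0.49 (edgeR adjusted p 0.00075, but 0.123 in a fit of all 24 libraries).

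Of the 12 largest rises, 10 averaged under 20 CPM at 270 min, and most of their reads at that time were in 1 library. Summed over these 10 arms, 270 min replicate 1 held 182 reads (143 CPM) with 9 of the arms present, replicate 2 held 11 reads (17.99 CPM) and replicate 3 held 8 reads (16.00 CPM). The 500 min libraries held between 26043 and 32770 CPM of the same arms. Since the base is so small, the fitted folds depend on that library. Without 270 min replicate 1 the log2 fold changes were 12.16 for miR-244-5p, 11.74 for miR-789-3p, 12.61 for miR-242, 10.55 for miR-788-3p, 11.53 for miR-790-3p, 6.81 for miR-1022-3p, 6.91 for miR-34-3p, 7.03 for miR-76-3p, 9.47 for lsy-6-3p and 8.87 for miR-248. Without 270 min replicate 2 that of miR-1022-3p was 9.88, and without 500 min replicate 2 that of miR-788-3p was 6.83. Each of these arms stayed past the threshold without any 1 of the 6 libraries. The part of depth or of library preparation in the reads of replicate 1 was not tested.

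Among miRNAs associated with neurons, those of lsy-6 and mir-790 were higher at 500 min. Of 6 tested arms of lsy-6, mir-124, mir-71, mir-790 and mir-791, 3 were higher, 0 were lower and 3 did not pass the test. Among all tested arms, 22.0% were higher and 21.1% lower. The higher arms were lsy-6-3p and both arms of mir-790, a hairpin that was also picked for late onset. At 270 min lsy-6-3p, miR-790-3p and miR-790-5p had 12, 11 and 1 reads, all in replicate 1. Such arms could pass the low-count filter through the later stages, where they are high. The count and the median of this list are therefore a description. The median was 3.45 above that of all arms, but the log2 fold changes were spread from -0.49 to 7.65. lsy-6-3p, of a miRNA through which the left and right members of a taste neuron pair become different, had 137, 174 and 266 CPM at 500 min, against 9.45 CPM in 270 min replicate 1 and 0 in the others. Its 500 min libraries all lay above those of 270 min, with a log2 fold change of 5.53 ± 0.96 (edgeR adjusted p 0.000264). miR-790-3p averaged 804 ± 222 CPM at 500 min and 2.89 ± 5.00 CPM at 270 min (log2 fold change 7.65 ± 1.17, edgeR adjusted p 8.42e-05). Its partner arm miR-790-5p had 81 reads at 500 min and 1 at 270 min, a ratio of 207 with a 95% counting interval of 36.2 to 8294 (edgeR adjusted p 0.000574; its fitted log2 fold change was 6.96, or 8.16 when 270 min replicate 1 was left out). miR-124-5p, of a miRNA expressed in sensory neurons, was not called, with 65.5, 5.60 and 108 CPM at 500 min and 12.6, 21.3 and 30.0 CPM at 270 min (edgeR adjusted p 0.23). Its partner miR-124-3p had no read in these libraries, and whether reads were assigned to the right arm was not tested. Both arms of mir-71, a miRNA with neuronal functions in ageing and olfaction, were not called either, with log2 fold changes of 0.37 ± 0.67 for miR-71-3p and -0.49 ± 0.52 for miR-71-5p.

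mir-228, whose promoter is widely used to mark glia, rose in both arms. miR-228-5p had 170837, 204504 and 212800 CPM at 500 min and 35941, 16358 and 24759 CPM at 270 min. The highest 270 min library was thus well under the lowest 500 min library, and the arm was 7.63-fold higher at 500 min (log2 fold change 2.93 ± 0.34, edgeR adjusted p 5.50e-06). As a share of counts it was 16.2% ± 2.73 at 500 min and 3.04% ± 0.643 at 270 min (n = 3, SD). miR-228-3p was the minor arm, at 3322 ± 1018 CPM at 500 min and 732 ± 523 CPM at 270 min (log2 fold change 2.18 ± 0.46, edgeR adjusted p 0.00121; 2.95 without 270 min replicate 1).

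For intestinal mir-60 the only tested arm went the other way. miR-60-3p had 90.8, 106 and 194 CPM at 500 min and 475, 646 and 568 CPM at 270 min, without overlap (log2 fold change -2.11 ± 0.56, edgeR adjusted p 0.00628). Its partner miR-60-5p was too rare to be tested and had 30 reads at 500 min and 14 at 270 min. With both arms summed the hairpin was lower (log2 fold change -1.61 ± 0.53, edgeR adjusted p 0.02). For muscle mir-1, which acts at the neuromuscular junction, neither tested arm was called. miR-1-3p is the arm known as the functional one, yet miR-1-5p took 82.1% to 100% of the hairpin's reads in the 500 min libraries and 94.6% to 97.5% in the 270 min libraries; whether reads were assigned to the right arm was not tested. miR-1-5p averaged 494 ± 187 CPM at 500 min and 926 ± 154 CPM at 270 min (log2 fold change -0.91 ± 0.49, edgeR adjusted p 0.156), and the libraries did not overlap. With library totals as scaling it was called lower (edgeR adjusted p 0.0146), as it was with a minimum count of 50 (0.0383) and without the 5 most abundant arms (0.0488). miR-1-3p had a log2 fold change of 1.14 ± 1.17 on 80 reads at 500 min and 78 at 270 min.

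Markers of maternal and larval tissue were scarce. The somatic gonad miRNAs mir-240 and mir-786 had 45 reads at 500 min and 69 at 270 min over 4 arms, 0.00222% to 0.00478% of counts in the 500 min libraries and 0.000466% to 0.00645% in the 270 min libraries. The only tested arm of the pair, miR-240-5p, was not called (edgeR adjusted p 0.425). The heterochronic let-7 and lin-4 families, which time larval development, held 0.0165% ± 0.0125 of a 500 min library, against 0.0310% ± 0.00153 of a 270 min library, mostly as miR-48-5p. None of their 3 tested arms was called.

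The 10 most abundant arms held 87.2% ± 0.802 of a 500 min library, against 81.8% ± 2.41 of a 270 min library (n = 3, SD). miR-57-3p, of a miRNA known to act in posterior patterning, led at both times, with 265226, 367704 and 293485 CPM at 500 min and 233253, 128992 and 148195 CPM at 270 min. The stages did not overlap, but the lowest 500 min library lay close to the highest 270 min library. Its log2 fold change of 0.86 ± 0.26 was past the threshold (edgeR adjusted p 0.0144). Leaving out 500 min replicate 2, 270 min replicate 2 or 270 min replicate 3 ended the call (edgeR adjusted p 0.0646, 0.0687 and 0.0654), as did the fit of 6 libraries (0.0615) and library totals (0.145). miR-72-5p, of the miR-31 relatives, had 149000 ± 21710.3 CPM at 500 min and 80214 ± 17822 CPM at 270 min (log2 fold change 0.89 ± 0.26, edgeR adjusted p 0.00936). Its call was lost with library totals (0.105) and without 270 min replicate 3 (0.0517). As shares of the library total, the scaling under which both calls are lost, miR-72-5p stood at 12.2% ± 1.12 at 500 min and 9.68% ± 0.533 at 270 min, and miR-57-3p at 25.4% ± 4.50 and 20.3% ± 2.64.

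miR-235-3p, of the worm's miR-92 relative that holds larval progenitor cells quiescent without food, had 52238, 47268 and 19150 CPM at 500 min. At 270 min it had 14684, 11483 and 13843 CPM. It was called higher (log2 fold change 1.57 ± 0.53, edgeR adjusted p 0.0229), but 500 min replicate 3 was not far above the 270 min libraries. It was no longer called when 500 min replicate 1, 500 min replicate 2 or any single 270 min library was left out (up to 0.096), with library totals (0.141), with a minimum count of 50 (0.0518) and in the fit of 24 libraries (0.058). The bantam relatives miR-82-3p and miR-81-3p were not called. miR-82-3p had 183419, 105091 and 156044 CPM at 500 min and 153472, 66019 and 127608 CPM at 270 min, a wide overlap (log2 fold change 0.36 ± 0.38, edgeR adjusted p 0.444). miR-81-3p had a log2 fold change of 0.68 ± 0.31 (edgeR adjusted p 0.093), and was called higher with DESeq2 size factors (0.0201), with DESeq2 (0.0175), with no low-count filter (0.0298) and in a fit of 21 libraries (0.049). miR-44-5p had a log2 fold change of -0.34 ± 0.27 (edgeR adjusted p 0.321), and was called lower with library totals (0.00143) and with a minimum count of 50 (0.0132). Its partner miR-44-3p, known as the main arm, had no read in these libraries. It is known to share its mature sequence with miR-45-3p, so where its reads were counted is not known. The arm to which the reads of miR-44-5p belong was not tested and is uncertain.

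The mir-35 family held 6 of the 12 largest falls. Of its 16 arms 15 had reads in the 6 libraries and 10 were tested, of which 8 were lower, 0 were higher and 2 did not pass the test. An arm with reads at 270 min alone could pass the low-count filter through that stage, so this count is a description. The median of the 10 was 6.09 below that of all arms, and -4.87 in absolute terms when the 3 arms without a read at 500 min were set to their bounds. Together its arms held 0.0473% ± 0.0195 of a 500 min library, against 0.997% ± 0.315 of a 270 min library (n = 3, SD). Its most abundant arm at 270 min was miR-36-3p, with 391, 179 and 187 CPM at 500 min and 3818, 2510 and 4943 CPM at 270 min (log2 fold change -3.88 ± 0.58, edgeR adjusted p 6.89e-05). miR-39-5p went further, with 6.33, 16.8 and 3.60 CPM at 500 min and 1284, 3630 and 1454 CPM at 270 min (log2 fold change -8.02 ± 0.96, edgeR adjusted p 5.50e-06). Every 500 min library lay far below every 270 min library. The partner arm miR-39-3p had 0 reads at 500 min and 13 at 270 min. Either arm of a hairpin was counted for the family, and whether reads were assigned to the right arm was not tested.

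miR-35-5p had no read at 500 min and 220, 355 and 382 CPM at 270 min, which makes it at least 89.5-fold lower at 500 min taking a floor of 3 counts for the 500 min libraries together (edgeR adjusted p 0.000309). miR-41-5p, likewise without a read in the 500 min libraries, was at least 16.7-fold lower (edgeR adjusted p 0.00728). miR-40-3p had 1 read at 500 min and 327 at 270 min, a 270 min to 500 min ratio of 128 with a 95% counting interval of 22.8 to 5058. miR-35-3p and miR-42-3p had log2 fold changes of -5.39 ± 1.16 and -5.43 ± 1.15. These varied with the library left out, between -7.50 without 500 min replicate 1 and -4.57 without 270 min replicate 2 for miR-35-3p, and between -7.39 without 500 min replicate 2 and -4.36 without 270 min replicate 2 for miR-42-3p. miR-38-5p, which had 2 reads in the 500 min libraries and 116 in the 270 min libraries, was called lower (edgeR adjusted p 0.0171), but not without 500 min replicate 1 or 3 or 270 min replicate 2 (up to 0.0632), nor with no low-count filter (0.058). Neither miR-38-3p, which had no read in the 500 min libraries and 41 in the 270 min libraries, nor miR-42-5p was called. miR-38-3p was called lower in the fits of 24 and 21 libraries (0.0478 and 0.0285). miR-42-5p averaged 278 ± 145 CPM at 500 min, against 499 ± 51.5 CPM at 270 min (log2 fold change -0.84 ± 0.51, edgeR adjusted p 0.202), and was called lower with library totals (0.0285) and with a minimum count of 50 (0.0498).

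**Figure D3:**
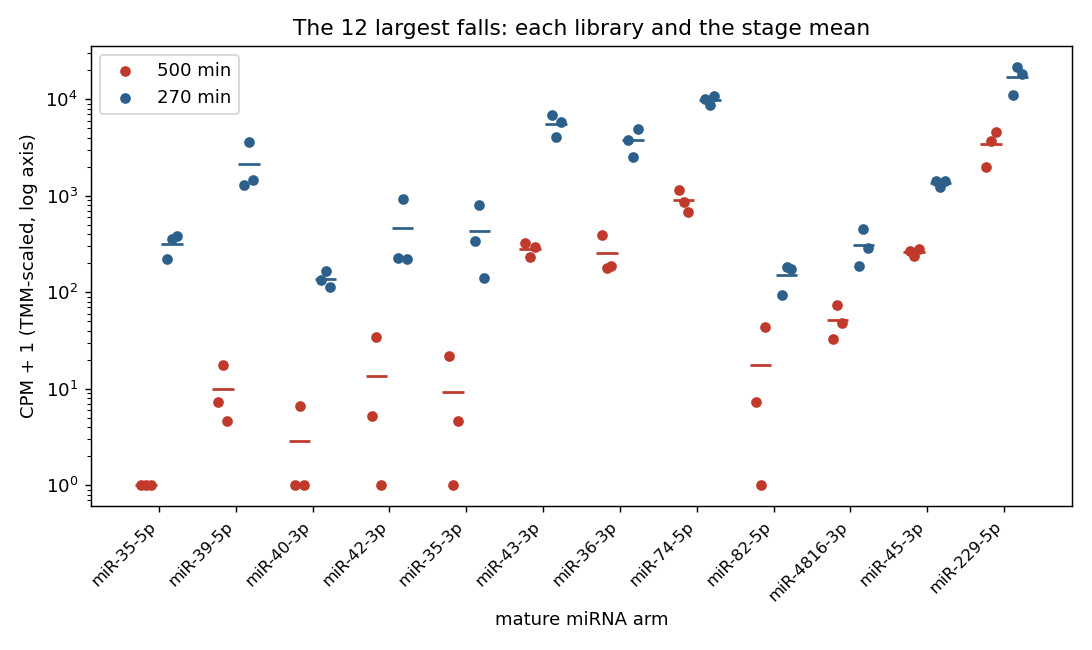
CPM + 1 on a log axis for the 12 arms with the largest falls, with 500 min libraries in red and 270 min libraries in blue (3 points each, bars at the mean). The red points lie below the blue ones in every arm, and miR-35-5p has no read in any 500 min library.

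Outside that family, the deepest falls of abundant arms were in miR-43-3p and miR-74-5p. miR-43-3p, of the mir-2 seed family and made from the mir-42 to mir-44 cluster, had 325, 230 and 295 CPM at 500 min and 6812, 4031 and 5831 CPM at 270 min. The libraries of each stage were close together and far from those of the other (log2 fold change -4.29 ± 0.42, edgeR adjusted p 9.71e-07). miR-74-5p had 1149, 862 and 684 CPM at 500 min and 9984, 8631 and 10766 CPM at 270 min (log2 fold change -3.44 ± 0.41, edgeR adjusted p 5.50e-06). The rarer miR-8199-5p had no read in the 500 min libraries and 165 in the 270 min libraries, and was at least 21.5-fold lower (edgeR adjusted p 0.00121). This arm lay under the level set for naming and was chosen after its values were seen. Its partner miR-8199-3p was too rare to be tested, with 10 reads at 500 min and 43 at 270 min. With both arms summed, mir-8199 was not called (log2 fold change -2.91 ± 1.21, edgeR adjusted p 0.0579). miR-45-3p averaged 261 ± 23.5 CPM at 500 min and 1358 ± 105 CPM at 270 min (log2 fold change -2.37 ± 0.40, edgeR adjusted p 0.000193). It is known to share its mature sequence with miR-44-3p, so its reads cannot be assigned to 1 hairpin with certainty. miR-67-3p, from an intron of zmp-1, had a log2 fold change of -2.30 ± 0.48 (edgeR adjusted p 0.000959, but 0.0592 in the fit of 24 libraries), and miR-4816-3p of -2.64 ± 0.76 (0.0097).

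The cluster of mir-229, mir-64, mir-65 and mir-66 lies within introns of gcn-1 on chromosome III (2172452 to 2173206) and is among the main miRNA sources of early embryos. Its arms held 5.97% ± 1.21 of a 500 min library, against 26.6% ± 5.07 of a 270 min library (n = 3, SD). Of its 6 tested arms 4 were lower, 0 were higher and 2 did not pass the test, with a median 1.39 below that of all arms. miR-64-5p had 38120, 39003 and 22219 CPM at 500 min and 116772, 97542 and 86543 CPM at 270 min (log2 fold change -1.60 ± 0.29, edgeR adjusted p 0.000361). miR-65-5p changed alike, at 27644 ± 8206 CPM at 500 min and 82938 ± 21147 CPM at 270 min (log2 fold change -1.59 ± 0.32, edgeR adjusted p 0.000959). miR-229-5p was 4.98-fold lower at 500 min (log2 fold change -2.32 ± 0.52, edgeR adjusted p 0.00191). miR-66-5p had a log2 fold change of -1.05 ± 0.33 (edgeR adjusted p 0.0144), and its call was lost without replicate 2 of either stage (0.052 and 0.0553), with no filter (0.178) and in the fits of 24 and 6 libraries (0.174 and 0.0943). miR-229-3p, at -0.82 ± 0.37, was not called (0.093), but was called lower with library totals (0.0019), with a minimum count of 50 (0.00943), without the 5 most abundant arms (0.0246) and when 500 min replicate 1 was left out (0.0478).

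The other families are read against the 43.1% of all tested arms that were called. In the mir-51 family, which is needed for the pharynx to attach in the embryo, 0 of 8 tested arms were called, with log2 fold changes from -2.60 to 1.34, and its share was 0.525% ± 0.201 at 500 min and 0.726% ± 0.0755 at 270 min. With library totals 2 of its 8 arms were called lower. When 500 min replicate 1 or 270 min replicate 3 was left out, 1 arm was called lower. In the mir-58 family, the worm relatives of insect bantam, 1 of 7 tested arms was higher, 2 were lower and 4 did not pass the test. The riser was miR-58a-3p, at 29086 ± 9145 CPM at 500 min and 11245 ± 2049 CPM at 270 min (log2 fold change 1.37 ± 0.36, edgeR adjusted p 0.00597). The lower arms were minor ones: miR-82-5p, which had 15 reads in the 500 min libraries and 315 in the 270 min libraries (edgeR adjusted p 0.0131, and 0.0571 without 500 min replicate 1), and miR-81-5p, which had 51 and 424 reads in the same libraries (0.0294). miR-81-5p was no longer called when 500 min replicate 1, 500 min replicate 2 or 270 min replicate 2 was left out (up to 0.221), with DESeq2 size factors (0.0686), with no low-count filter (0.192), and in the fits of 24, 21 and 6 libraries (0.115 to 0.199). The family's share was 20.8% ± 4.60 at 500 min and 21.2% ± 4.37 at 270 min.

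In the mir-72 family, which held 13.8% ± 0.994 of counts at 500 min and 14.9% ± 0.173 at 270 min, 1 of 5 tested arms was higher (miR-72-5p), 2 were lower and 2 did not pass the test. The lower ones were miR-74-5p and miR-73-3p, while miR-74-3p was not called (log2 fold change -0.23). Either arm of a hairpin was counted, and which arms carry the family's seed was not checked. The log2 fold change of miR-73-3p, -0.84 ± 0.30 (edgeR adjusted p 0.0315), lost its call without any 1 of the 6 libraries other than 270 min replicate 2 (0.0575 to 0.102), with DESeq2 size factors (0.0911), with DESeq2 (0.1), with no low-count filter (0.192) and in the fits of 24, 21 and 6 libraries (0.134 to 0.322). In the mir-2 family of 6 tested arms, both arms of mir-43 were lower and 4 missed the threshold, among them miR-2-3p (log2 fold change 0.61 ± 0.46). Of 3 arms tested in the mir-44 family, miR-45-3p was lower, while miR-44-5p and miR-61-3p (0.38 ± 0.31) missed the threshold; miR-61-3p was called higher with DESeq2 (0.0306). In the miR-29 relatives mir-49 and mir-83, 1 of 3 tested arms was higher: miR-83-3p had 77 reads at 500 min and 11 at 270 min (log2 fold change 4.49 ± 1.20, edgeR adjusted p 0.00628; 8.30 without 270 min replicate 1). miR-49-5p was not called (0.1), but was called higher with DESeq2 size factors (0.0479), with DESeq2 (0.0223), with no low-count filter (0.0398), in the fit of 6 libraries (0.0338) and when 500 min replicate 2 was left out (0.04). None of 3 tested arms of mir-75 and mir-79 and none of 2 of mir-50 was called. miR-75-3p was too rare to be tested, with 33 reads at 500 min and 1 at 270 min. With both arms summed, mir-75 was called higher (log2 fold change 4.34 ± 1.39, edgeR adjusted p 0.0167). With no low-count filter, or without the 5 most abundant arms, 1 of 4 arms of mir-75 and mir-79 was called higher. miR-1018, listed as a mirtron although the annotation places its hairpin outside protein-coding genes, was higher at 258 ± 81.5 CPM at 500 min and 55.1 ± 35.8 CPM at 270 min (edgeR adjusted p 0.0107, but 0.0527 without 270 min replicate 3 and 0.0628 in the fit of 24 libraries), with a log2 fold change of 2.20, and 2.88 without 270 min replicate 1.

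The libraries of 330 and 410 min show where between the 2 times the called arms moved. Of the 24 arms called higher, 14 had a higher mean at each later time, 17 were highest at 500 min and 7 at 410 min. Their largest step on the scale of log2(mean CPM + 1) was from 270 to 330 min in 6 arms, from 330 to 410 min in 13 and from 410 to 500 min in 5. The last 5 were miR-245-3p, miR-788-3p, miR-789-3p, miR-790-5p and miR-235-3p. miR-245-3p averaged 292, 342, 3382 and 52986 CPM at 270, 330, 410 and 500 min, and miR-788-3p had reads at 270 and 500 min but 0 in all libraries between. lsy-6-3p came earlier, with means of 3.15, 104, 280 and 192 CPM over the same times, and miR-790-3p with 2.89, 43.8, 918 and 804 CPM. Of the 23 arms called lower, all were highest at 270 min and 18 had a lower mean at each later time. Their largest step was from 270 to 330 min in 3 arms, from 330 to 410 min in 7 and from 410 to 500 min in 13. miR-43-3p averaged 5558, 4893, 1136 and 283 CPM and miR-39-5p 2123, 1319, 141 and 8.91 CPM. miR-43-3p thus stood close to its 270 min level at 330 min, and both arms were far below it at 410 min.

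**Figure D4:**
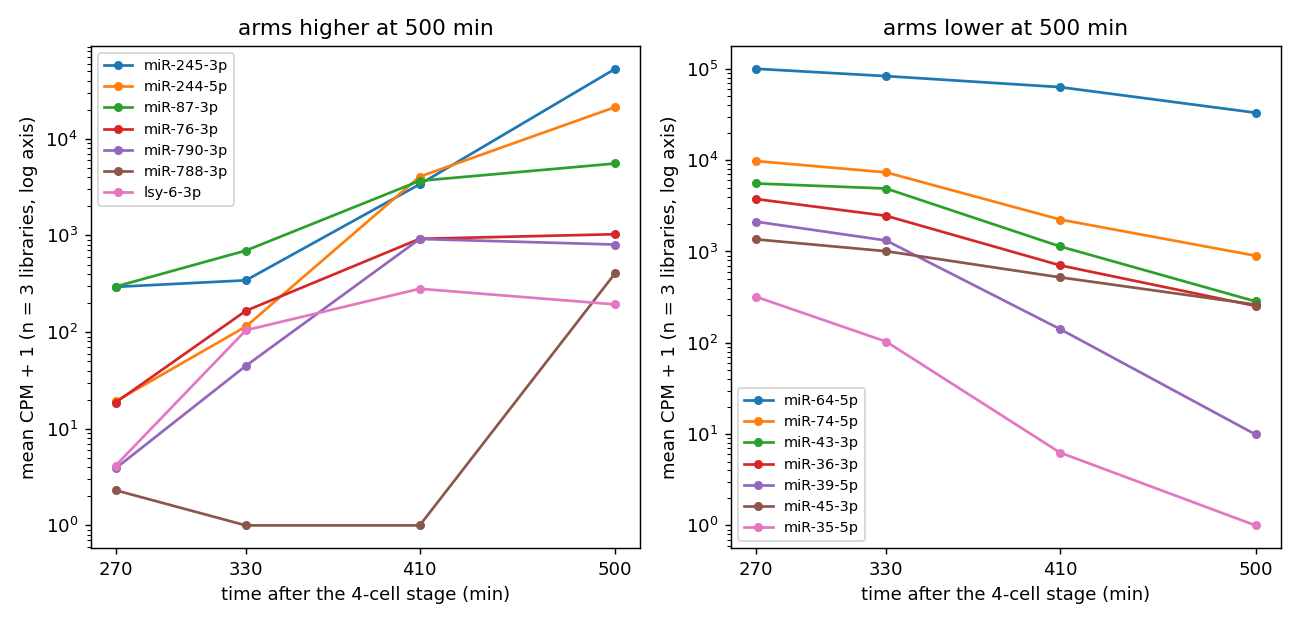
Mean CPM + 1 on a log axis over 3 libraries at 270, 330, 410 and 500 min for 7 arms called higher at 500 min (left) and 7 called lower (right); SDs are not drawn. miR-788-3p averages 1.31 CPM at 270 min, 0 at 330 and 410 min and 407 at 500 min. lsy-6-3p and miR-790-3p are highest at 410 min, and the mean of each arm on the right declines at each step.

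The 2 arms of a hairpin need not change together, since they differ in stability and loading. Both arms were tested in 28 hairpins. In 5 both were called in the same direction (mir-35, mir-43, mir-87, mir-228 and mir-790), in 11 one arm was called, and in 12 neither was; in 0 hairpins were the arms called in opposite directions. Of 21 hairpins with at least 10 reads over both arms in each of the 6 libraries, 8 had shares of the 5p arm that did not overlap between the stages. The shares of mir-87 stood out: its 5p arm had 28.0%, 37.9% and 33.5% of the hairpin's reads at 500 min and 77.7%, 79.3% and 78.2% at 270 min. Its 5p arm averaged 84.6% at 330 min and 60.5% at 410 min. Both of its arms rose, miR-87-5p by the smaller log2 fold change of 1.39 ± 0.43 (edgeR adjusted p 0.0144). That call did not survive leaving out 500 min replicate 2, 270 min replicate 2 or 270 min replicate 3 (up to 0.0759), nor scaling with library totals (0.0614), and without 270 min replicate 1 the log2 fold change was 2.09.

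For mir-58a the 5p arm had 21.03%, 23.5% and 4.08% at 500 min and 36.4%, 40.9% and 32.2% at 270 min, with the 3p arm called higher and miR-58a-5p at a log2 fold change of -0.10 ± 0.64. For mir-42 the 5p arm had 99.1%, 86.4% and 100% at 500 min and 71.2%, 32.7% and 69.1% at 270 min, on totals of 44 to 992 reads in a library. In mir-74 it had 92.0% ± 3.13 at 500 min and 99.1% ± 0.435 at 270 min (n = 3, SD). These shares are given as a description, because 3 libraries against 3 cannot go below an exact permutation p of 0.1 in a two-sided test. Reads assigned to the wrong arm or to a near-identical family member were not tested for.

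**Figure D5:**
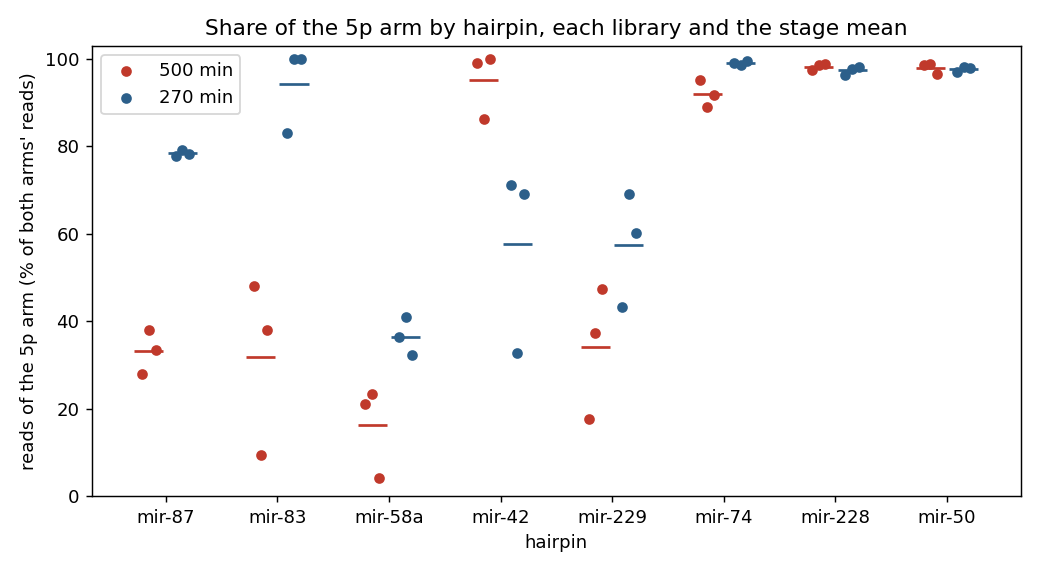
Share of a hairpin's reads that came from its 5p arm, in percent, for 8 hairpins, with 500 min libraries in red and 270 min libraries in blue (3 points each, bars at the mean). mir-87 and mir-83 (the second on as few as 5 reads in a library) are lower and mir-42 is higher at 500 min without overlap, while mir-228 and mir-50 are above 95% in all libraries.

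Of the 244 hairpins in the table, 237 were placed on WBcel235. Hairpins that lie within 10000 bases of each other on the same strand formed 10 groups with at least 2 tested hairpins. On chromosome IV, mir-228 and mir-790 span 5562025 to 5566491, and all 4 of their arms were higher at 500 min. In the mir-35 to mir-41 cluster on chromosome II (11537608 to 11538404), 7 of 8 tested arms were lower. As for the family, arms could pass the filter through 270 min alone, so this count is a description. Both arms of mir-37 were too rare to be tested, and their sum was not called (log2 fold change -0.89 ± 1.37, edgeR adjusted p 0.606). In the mir-42 to mir-44 cluster on the same chromosome (11889811 to 11890118), 3 of 5 tested arms were lower. There miR-43-5p had a log2 fold change of -3.18 ± 0.87 (edgeR adjusted p 0.00728, but 0.0633 in the fit of 24 libraries and 0.062 with no low-count filter), and miR-44-5p, as given above, was not called. In the mir-73 to mir-75 group on X, miR-74-5p and miR-73-3p were lower and miR-75-5p was not called, with 52 reads at 500 min and 15 at 270 min (edgeR adjusted p 0.0881, and 0.0148 in the fit of 6 libraries). Over all tested arms, 22.0% were higher and 21.1% lower. By chromosome, 2 of 23 tested arms on II were higher and 13 lower, and 1 of 11 on III was higher and 5 lower. On IV 7 of 19 and on V 5 of 13 were higher, with 0 lower on either. On I 3 of 17 were higher and 1 lower, and on X 5 of 25 were higher and 4 lower. By position, 4 of 45 arms from introns were higher and 15 lower, and 19 of 62 arms from outside protein-coding genes were higher and 8 lower. Most of the lower arms in introns belong to the mir-35 cluster, which lies opposite to an intron of Y62F5A.9, and to the cluster in gcn-1, so these counts repeat the families above.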

How the data were processed

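Per the labels' protocols, total RNA was extracted with TRIzol and small RNA libraries were made with an Illumina TruSeq kit and 15 cycles of PCR; no molecular identifiers are described, so intervals and floors cover counting error only. The authors deposited raw read counts per mature miRNA arm, not normalized. Bowtie and HTSeq are named in the submitters' processing notes; for versions, genome build, annotation, strand and multiply mapped reads, the sources used here give nothing. Near-identical family members may share reads.

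The 12 libraries of 270, 330, 410 and 500 min were fitted together in R 4.3.3 with edgeR 4.0.16 (filterByExpr with a minimum count of 10, TMM, robust dispersions, stage as factor), and 500 min was compared with 270 min by the quasi-likelihood test (common biological coefficient of variation 0.545). P-values were adjusted over all 109 arms. The SE of a log2 fold change is its size over the square root of F. The procedure was tested on simulated counts. DESeq2 1.42.0 was an alternative.

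Named arms are the 10 most abundant, the 12 largest rises and falls past the threshold without overlap and with at least 100 CPM at the higher stage, and members of the lists. The members and lists were chosen with earlier results of these data known. A list of 7 hairpins picked for late onset (mir-242, mir-244, mir-245, mir-248, mir-788, mir-789 and mir-790) had 8 of 8 tested arms higher, which is no independent evidence. A planned test on sums over shared seeds was not run, since mature sequences were not used here. Hairpins were placed with the Ensembl annotation of WBcel235; counts do not depend on it.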

Additional observations from a re-analysis of the deposited data

How the results depend on the processing

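The number of arms called was 47, and between 39 and 53 under all other settings: 47 with DESeq2 size factors, 51 with library totals, 45 without a low-count filter, 41 with a minimum count of 50, 51 with DESeq2, 39 with all 24 libraries in the fit and 43 with 6, and 46 without the 5 most abundant arms. Without any 1 of the 6 libraries, with filter and TMM factors kept, it was 40 to 45, with 18 to 23 higher and 20 to 23 lower. Chosen after the data were seen, a fit of 21 libraries gave 47 and counts summed over both arms of each hairpin gave 42 hairpins. At an unadjusted p under 0.05, 54 arms passed. Among the arms named, the fold changes that changed sign were of arms not called: miR-58a-5p (0.0102 with DESeq2 size factors, 0.00983 with DESeq2, 0.0518 with 24 libraries, and -0.77 to 0.38 without any 1 library, above 0 without 500 min replicate 3), miR-48-5p (-0.86 to 0.14 without any 1 library, above 0 without 500 min replicate 3) and, with library totals, miR-82-3p (-0.17), miR-61-3p (-0.21) and miR-71-3p (-0.26). The causes were not tested.

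Whether the replicate numbers pair the samples is not settled, and the main test did not use them. Deviations from the stage means correlated at 0.0974, 0.111 and 0.211 between 500 and 270 min libraries of the same number. Between others they correlated at -0.255 to 0.102. Of the 6 libraries, 5 correlated best with their own number, which is a hint from the data and not the design; 270 min replicate 1 did not. With the replicate block 53 arms were called (27 higher and 26 lower), 46 of them among the 47. The common biological coefficient of variation was 0.44 with the block, against 0.545 without it. Of the arms named, it added calls for miR-229-3p (edgeR adjusted p 0.00618), miR-1-5p (0.0284), miR-81-3p (0.0171), miR-49-5p (0.0287) and miR-75-5p (0.0375), and ended none. In the mir-51 family 1 of 8 arms was called higher with the block. The low depth of 500 min replicate 2 limits arms of a few CPM.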
